A study of Mus musculus with 8 samples.

Results

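The core circadian clock genes were examined in the aorta, as the rows of the count files whose gene symbol was one of 10 listed names: the activators *Arntl* (also called *Bmal1*), *Clock* and *Npas2*, and the repressors *Cry1*, *Cry2*, *Per1*, *Per2*, *Per3*, *Nr1d1* and *Nr1d2*. All 10 were found among the 21859 genes of the files, and all 10 were among the 15077 genes with enough counts to be tested. RNA had been sequenced from the aortas of 4 *ApoE*-/- and 4 wild-type (WT) mice, all of them males on the C57BL/6 background, aged 40 weeks and kept on chow (labelled as a normal diet), with 1 library per mouse. The *ApoE*-/- mice lack apolipoprotein E in every cell from birth and are prone to atherosclerosis. No treatment is labelled for either genotype. The paper states that mice were fasted before they were killed. The hour at which the aortas were collected is not given in the sources used here.

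The clock is a loop of transcription that runs in nearly every cell with a period close to a day. ARNTL pairs with CLOCK or its relative NPAS2, and the pair binds E-box sequences and switches on the *Per*, *Cry* and *Nr1d* genes. PER and CRY proteins then return to the nucleus and block the pair, while NR1D1 and NR1D2 (the REV-ERB receptors) repress *Arntl* and *Npas2* through ROR response elements. Smooth muscle cells and endothelium of the arterial wall carry this clock, and it is known for setting daily rhythms of vascular tone. Because activators and most repressors peak at different times of day, the level of each gene depends on the hour as well as on the tissue. With the collection hours unknown, a genotype difference below cannot be told apart from a difference in hour.

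Letters of these elements were looked for in the promoters of the members, because the pairs of genes compared below are linked by them in the known loop. RefSeq promoters (build GRCm38.p6, 250 bases before to 50 after a start) were at hand for 9 of the 10 genes, *Per2* being the exception, with 13 promoters in all. The E-box CACGTG lay in promoters of *Cry1* and *Per1* and in 7.15% of all 32851 promoters, read on both strands. The variant CACGTT lay in those of *Cry1*, *Cry2* and *Nr1d1* and in 4.68% of all promoters. The D-box letters TTATGTAA or TTACGTAA, which the output factors DBP, TEF and HLF recognise, lay only in *Per3* among the members, at 2 places, and in 1.06% of all promoters. The core TAGGTCA of the ROR response element lay only in *Arntl* among the members and in 2.61% of all promoters. None of these motifs overlapped another in the 4 stretches below, which are written 5′ to 3′ on the strand of the gene with the matched letters in capitals. They are shown for *Cry1*, the gene with the clearest genotype difference, for *Per1*, the other member with the same E-box, for *Per3* with its D-boxes and for *Arntl*. The stretch of *Cry1* is chr10:85185065-85185184 on the minus strand, that of *Per1* chr11:69098733-69098852 on the plus strand, that of *Per3* chr4:151044776-151044895 on the minus strand and that of *Arntl* chr7:113207529-113207558 on the plus strand. The *Arntl* stretch lies after the start, in the transcribed part, and the other 3 lie before it. In *Cry1* the variant box is on the opposite strand and reads AACGTG.
Cry1: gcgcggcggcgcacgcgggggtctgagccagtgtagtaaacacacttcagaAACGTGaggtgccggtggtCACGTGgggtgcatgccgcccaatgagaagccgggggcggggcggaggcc
Per1: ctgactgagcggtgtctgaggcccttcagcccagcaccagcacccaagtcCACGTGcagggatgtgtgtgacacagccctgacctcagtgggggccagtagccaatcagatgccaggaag
Per3: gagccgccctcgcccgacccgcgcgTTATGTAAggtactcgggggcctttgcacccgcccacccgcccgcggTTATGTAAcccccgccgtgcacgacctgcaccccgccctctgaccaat
Arntl: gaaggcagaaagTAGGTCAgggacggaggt

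The libraries themselves stood apart by genotype. Between 23240995 and 23940156 read pairs were counted on genes in *ApoE*-/- mice and between 18375898 and 21664598 in WT mice. Pairs on genes made up 32.3% to 35.6% of all pairs in *ApoE*-/- mice and 27.9% to 30.2% in WT mice, and pairs without a feature 50.1% to 54.7% and 56.4% to 58.0%. Neither share overlapped between genotypes, and its part in the results below was not tested. *Apoe* had a normalized level of 25.2 ± 10.7 CPM (read pairs scaled to the size of the library, SD, n = 4) in *ApoE*-/- and 717 ± 145 in WT aortas. This was a log2 fold change of −4.83 ± 0.37 (SE), with an adjusted p of 0.0141 in edgeR. The tissue markers were present in every library, with the 8 contractile smooth muscle genes summing to 4974 to 20966 CPM. *ApoE*-/- replicate 1 had the lowest of these sums, against 11102 CPM in the next lowest mouse, and results that turn on this library are given below without it. CPM below are normalized with edgeR's TMM factors, and log2 fold changes are *ApoE*-/- minus WT.

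Among the 10 genes, *Cry1* fell in *ApoE*-/- aortas and was the one gene whose difference passed the edgeR test over all genes (adjusted p under 0.05). None passed it in the higher direction, where 2 of the 10 (*Arntl* and *Npas2*) had an unadjusted p under 0.05 and DESeq2 called 1. Over all tested genes, edgeR called 0.371% higher and 0.0929% lower (56 and 14 genes). These counts rested on single libraries, with 417 and 176 genes (2.75% and 1.16%) called without *ApoE*-/- replicate 1, and 0 to 15 higher and 0 to 2 lower without any 1 of the other 7 mice. With an unadjusted p under 0.05, 5 of the 10 members stood against 11.4% of all genes. DESeq2, the tool named by the study, called 4 of the 10, *Cry1*, *Per2* and *Per3* lower and *Npas2* higher, against 4.29% of the 16803 genes it tested. In 3 of the 10, again *Cry1*, *Per2* and *Per3*, all *ApoE*-/- mice lay below all WT mice, a pattern found in 3.3% of all genes. The opposite pattern was found in 0 members and in 5.41% of all genes. The median absolute log2 fold change was 0.88 over the members and 0.17 over all genes tested.

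**Figure D1:**
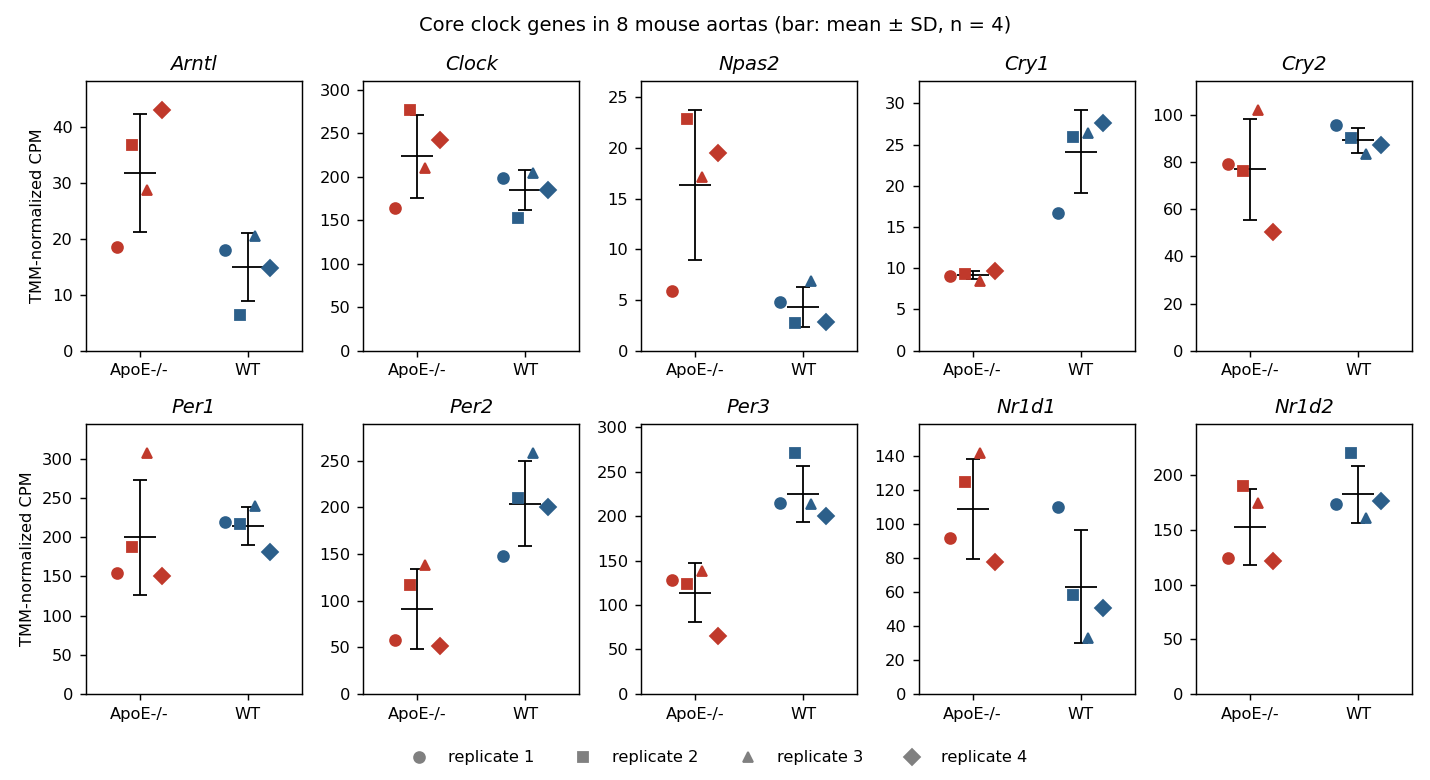
TMM-normalized CPM of each core clock gene in every aorta, with *ApoE*-/- mice in red and WT mice in blue, a marker shape for each replicate number and bars for the mean ± SD (n = 4). The *ApoE*-/- mice lie below every WT mouse for Cry1, Per2 and Per3, and *ApoE*-/- replicates 2 to 4 lie above every WT mouse for Arntl, Clock and Npas2.

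Cryptochromes are the strongest inhibitors of the ARNTL:CLOCK pair. *Cry1* (ENSMUSG00000020038.10, GRCm38 chr10:85131700-85185064, minus strand) had 9.09, 9.36, 8.49 and 9.72 CPM in *ApoE*-/- replicates 1 to 4. In WT replicates 1 to 4 it had 16.7, 25.9, 26.4 and 27.6 CPM. The 4 *ApoE*-/- mice were alike and the WT mice all lay above them, with WT replicate 1 lowest. The means were 9.17 ± 0.517 and 24.2 ± 5.05 CPM (SD, n = 4), from 195 to 577 counts per library. In log2 terms *Cry1* fell by 1.40 (SE 0.17), with an adjusted p of 0.0355 in edgeR and 8.41e-10 in DESeq2. On the log2 scale, the SD of *Cry1* among *ApoE*-/- mice was 0.08, at percentile 3.19 of the SDs of all tested genes (1.97 to 12.7 without each *ApoE*-/- mouse). These libraries held 195 to 224 counts of *Cry1*, and this SD was not tested against the noise of counting. Leaving out *ApoE*-/- replicate 1 or WT replicate 1 kept the edgeR call (adjusted p = 0.0104 and 0.024). Without *ApoE*-/- replicates 2, 3 or 4 the edgeR adjusted p was 0.0584, 0.0879 and 0.0738, and without WT replicates 2, 3 or 4 it was 0.146, 0.143 and 0.145. The log2 fold change stayed between −1.54 and −1.33 in these 8 fits, and DESeq2 on the same 7 mice gave an adjusted p of at most 1.78e-06.

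*Cry2* (ENSMUSG00000068742.11, chr2:92403646-92434043, minus strand), the second cryptochrome, had 79.1, 76.2, 102.1 and 50.2 CPM in the *ApoE*-/- mice. The WT mice had 95.6, 90.3, 83.3 and 87.3 CPM. The genotypes overlapped, since *ApoE*-/- replicate 3 exceeded every WT mouse and the other 3 *ApoE*-/- mice lay below them. On the log2 scale they differed by −0.21 ± 0.19 (SE), with an edgeR adjusted p of 0.792, and by −0.055 without *ApoE*-/- replicate 4 and −0.38 without *ApoE*-/- replicate 3. A noncoding transcript, *D930015M05Rik*, overlaps *Cry2* on the opposite strand.

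The period proteins are the partners of the cryptochromes in the repressor complex, and PER2 is the member on which the rhythm depends most. *Per2* (ENSMUSG00000055866.9, chr1:91415982-91459324, minus strand) had 57.9, 117, 138 and 51.9 CPM in *ApoE*-/- mice and 148, 210.2, 258 and 200.2 CPM in WT mice. The highest *ApoE*-/- mouse, replicate 3, was still below the lowest WT mouse, replicate 1. The log2 difference of −1.16 ± 0.35 (SE) passed in DESeq2 (adjusted p = 0.0329) and not in edgeR (adjusted p = 0.2). DESeq2 lost this call without *ApoE*-/- replicate 4 (adjusted p = 0.0917) and without WT replicates 2, 3 or 4 (0.13, 0.195 and 0.122).

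*Per3* (ENSMUSG00000028957.12, chr4:151003652-151044665, minus strand), whose loss leaves the mouse clock largely running, had 129, 124, 138 and 65.0 CPM in *ApoE*-/- mice. It had 215, 271, 213 and 199.7 CPM in WT mice. Here too no *ApoE*-/- mouse reached a WT mouse, and *ApoE*-/- replicate 4 was far below the other three. Its log2 difference of −0.98 (SE 0.24) had an adjusted p of 0.116 in edgeR and 0.00517 in DESeq2. DESeq2 kept the call in 7 of 8 fits that left out a mouse and lost it without WT replicate 2 (adjusted p = 0.0582). *Camta1* overlaps *Per3* on the same strand.

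*Per1* (ENSMUSG00000020893.17, chr11:69095217-69109960, plus strand), the period gene that answers fastest to light and to glucocorticoids, had 155, 188, 307 and 150.4 CPM in *ApoE*-/- mice. The WT mice had 219.5, 217, 240.1 and 181 CPM, in the middle of that range. The fitted log2 difference was −0.10 ± 0.24 (SE), with an edgeR adjusted p of 0.93, and its sign turned without *ApoE*-/- replicate 1 or 4 (0.0082 and 0.014).

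REV-ERB alpha and beta, encoded by *Nr1d1* and *Nr1d2*, are haem-binding nuclear receptors that repress the activator genes. *Nr1d1* (ENSMUSG00000020889.11, chr11:98767932-98775333, minus strand) had 91.7, 125, 142 and 77.6 CPM in *ApoE*-/- mice. In WT mice it had 110.4, 58.5, 32.7 and 50.8 CPM. Only WT replicate 1 reached the range of the *ApoE*-/- mice. With all 8 mice the log2 difference was 0.79 ± 0.37 (SE), with an adjusted p of 0.488 in edgeR and 0.362 in DESeq2. Without WT replicate 1 it was 1.21 in edgeR (adjusted p = 0.204) and 1.19 in DESeq2 (adjusted p = 0.00953), which called 2.02% of all genes higher there. *Thra* overlaps *Nr1d1* on the opposite strand, and the library kit kept strand.

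*Nr1d2* (ENSMUSG00000021775.11, chr14:18204054-18239127, minus strand) had 124, 191, 175 and 122 CPM in *ApoE*-/- mice and 174, 220.5, 161 and 176 CPM in WT mice. The genotypes overlapped, with *ApoE*-/- replicates 1 and 4 below all WT mice. The log2 difference was −0.26 ± 0.19 (SE), with an edgeR adjusted p of 0.724, and it lay between −0.38 and −0.16 when each mouse was left out.

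Of the activators, *Arntl* (ENSMUSG00000055116.8, chr7:113207465-113314126, plus strand) is the one without which the mouse clock stops. It had 18.5, 36.8, 28.7 and 43.0 CPM in *ApoE*-/- mice and 17.9, 6.46, 20.5 and 14.7 CPM in WT mice. *ApoE*-/- replicate 1 lay among the WT mice and the other three above all of them. Over all mice the log2 difference was 1.09 ± 0.38 (SE), with an adjusted p of 0.29 in edgeR and 0.102 in DESeq2. Without *ApoE*-/- replicate 1 it was 1.28, with an adjusted p of 0.0913 in edgeR and 0.00743 in DESeq2, which called 5.18% of all genes higher there. *Arntl* lies 93.5 Mb from *Apoe* on the same chromosome, and *Gm45355*, an antisense transcript, overlaps it.

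*Npas2* (ENSMUSG00000026077.15, chr1:39193731-39363236, plus strand), which can stand in for *Clock*, had the largest log2 fold change of the 10 genes. The *ApoE*-/- mice had 5.84, 22.9, 17.2 and 19.5 CPM and the WT mice 4.82, 2.76, 6.87 and 2.82 CPM. As for *Arntl*, *ApoE*-/- replicate 1 lay among the WT mice. It was 1.92 ± 0.47 (SE), from 59 to 524 counts per library, and its adjusted p was 0.117 in edgeR and 0.00213 in DESeq2. Without *ApoE*-/- replicate 1 it was 2.21 and passed in edgeR (adjusted p = 0.0133), in a fit that called 2.75% of all genes higher. DESeq2 kept this call in all 8 fits that left out a mouse (adjusted p at most 0.0277). The pseudogenes *Gm3617* (same strand) and *Gm20428* (opposite strand) overlap *Npas2*.

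*Clock* (ENSMUSG00000029238.11, chr5:76209868-76304792, minus strand), whose RNA is known to cycle little, had 165, 277, 210.3 and 242 CPM in *ApoE*-/- mice. The WT mice had 198, 153, 205 and 185 CPM. The log2 difference was 0.27 ± 0.18 (SE, edgeR adjusted p = 0.689) and between 0.15 and 0.39 when each mouse was left out, and *ApoE*-/- replicate 1 was again among the WT mice. *Ube2n-ps1*, a pseudogene, and *Gm43658* overlap *Clock* on the same strand.

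**Figure D2:**
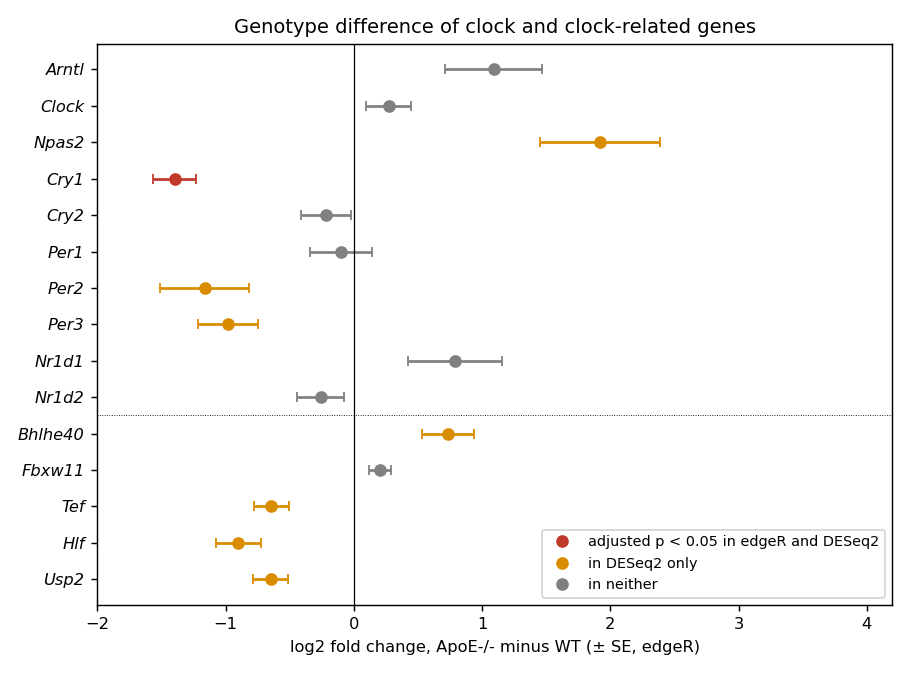
Log2 fold changes (*ApoE*-/- minus WT, edgeR) with their standard errors for the 10 core clock genes and, under the dotted line, the 5 named genes of the regulator and output lists. Cry1 at −1.40 is the one gene that passed in both edgeR and DESeq2, and Npas2 at 1.92 lies farthest from 0.

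How far the mice of a genotype differed among themselves was compared with the SDs of all tested genes on the log2 scale. In WT mice, *Arntl* (SD 0.74), *Nr1d1* (0.72) and *Npas2* (0.62) lay at percentiles 97.0, 96.7 and 94.7. The *Arntl* value rested on WT replicate 2, without which the SD was 0.24 (percentile 64.7), and the *Nr1d1* value in part on WT replicate 1, without which it was 0.44 (percentile 85.5). For *Npas2* the percentile stayed between 91.2 and 95.7 whichever WT mouse was left out. *Cry2* varied little in WT mice (SD 0.08, percentile 15.6). In *ApoE*-/- mice, *Npas2* (0.89) and *Per2* (0.71) had the highest SDs of the members, at percentiles 88.0 and 81.7. Without *ApoE*-/- replicate 1 the SD of *Npas2* was 0.21 (percentile 37.2) and that of *Per2* 0.75 (percentile 90.6). The median SD of all genes was 0.34 in *ApoE*-/- and 0.18 in WT mice.

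Because members of a family share a role, their proportions were compared as log2 ratios of CPM in each mouse, with exact permutation tests (two-sided, all 70 ways to label 4 of the 8 mice *ApoE*-/-) and Benjamini-Hochberg adjustment over 6 ratios. The smallest p such a test allows is 0.0286. *Per1* to *Per2* was higher in every *ApoE*-/- mouse (1.42, 0.68, 1.16 and 1.53) than in any WT mouse (0.57, 0.05, −0.11 and −0.14). The difference was 1.10 (exact permutation p = 0.0286, adjusted p = 0.0429). *Per1* to *Per3* was likewise higher in every *ApoE*-/- mouse (0.27 to 1.21) than in any WT mouse (−0.32 to 0.17), by 0.87 (exact permutation p = 0.0286, adjusted p = 0.0429). *Per2* to *Per3* differed by −0.23 with overlap (exact permutation p = 0.543, adjusted p = 0.543). Relative to *Per1*, both *Per2* and *Per3* were thus lower in *ApoE*-/- aortas.

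*Nr1d1* to *Nr1d2* was −0.44, −0.61, −0.30 and −0.65 in *ApoE*-/- mice and −0.65, −1.91, −2.30 and −1.79 in WT mice. The lowest *ApoE*-/- mouse, at −0.647, lay just above the highest WT mouse, at −0.652, and the difference was 1.16 (exact permutation p = 0.0286, adjusted p = 0.0429). *Clock* to *Npas2* was 4.79, 3.59, 3.61 and 3.63 in *ApoE*-/- mice and 5.34, 5.75, 4.88 and 5.98 in WT mice, a difference of −1.58 (exact permutation p = 0.0286, adjusted p = 0.0429). *ApoE*-/- replicate 1 was the mouse nearest to WT. *Cry1* to *Cry2* differed by −1.11 and the genotypes overlapped, as WT replicate 1 at −2.51 lay below *ApoE*-/- replicate 4 at −2.36 (exact permutation p = 0.0571, adjusted p = 0.0686). None of these 4 calls held when a mouse was left out, as the adjusted p over the 6 ratios was then at least 0.0571 in all 8 sets of 7 mice, with at most 3 ratios at the smallest p. The genotypes did not overlap for these 4 ratios in any set. Leaving out a mouse raised the unadjusted exact permutation p to 0.0571 for *Per1* to *Per2* (without *ApoE*-/- replicate 1 or 4 or WT replicate 2, 3 or 4), for *Per1* to *Per3* and *Clock* to *Npas2* (without any WT mouse) and for *Nr1d1* to *Nr1d2* (without any *ApoE*-/- mouse).

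**Figure D3:**
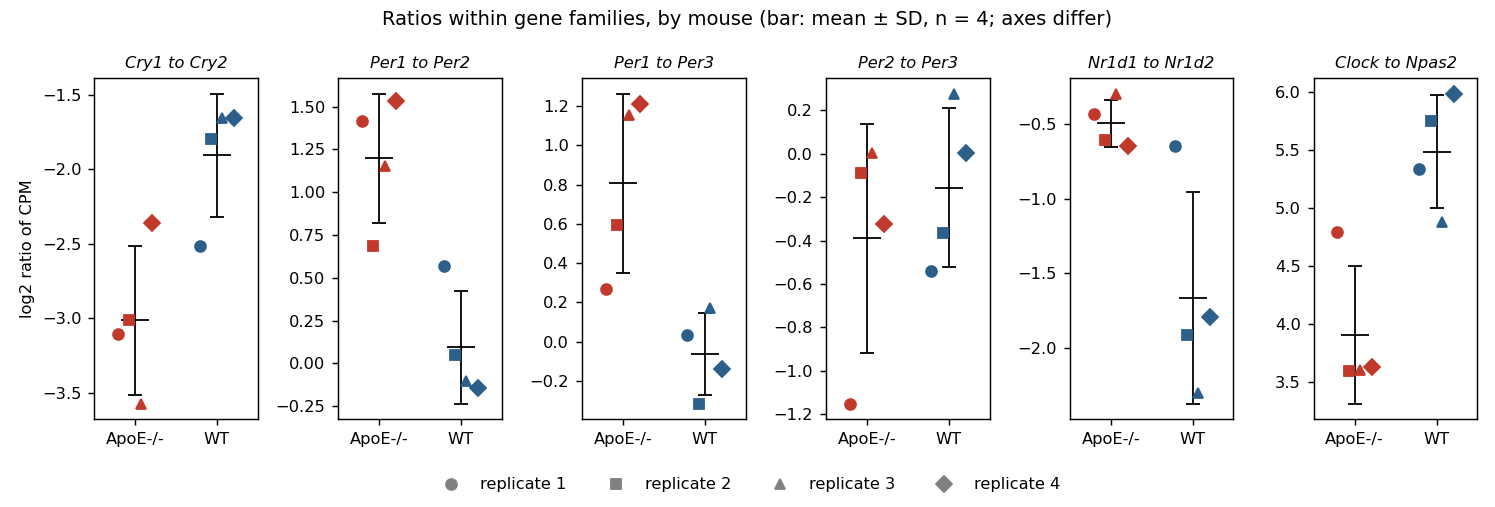
Log2 ratio of CPM within gene families in each mouse, *ApoE*-/- in red and WT in blue, with bars for the mean ± SD (n = 4) and a separate axis for each ratio. The genotypes do not overlap for Per1 to Per2, Per1 to Per3, Nr1d1 to Nr1d2 and Clock to Npas2.

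Co-variation was examined over the 8 mice for the 45 pairs of members, in log2 CPM, with permutation tests over the 40320 pairings and adjustment over the 45 pairs. Each of the 3 pairs of activators had a positive coefficient. For *Arntl* and *Npas2*, Pearson's r was 0.91 (permutation p = 0.000149, adjusted p = 0.0067) and Spearman's rho 0.98 (permutation p = 0.000397, adjusted p = 0.0179). Without the mice farthest from the median of *Arntl*, *ApoE*-/- replicate 4 and WT replicate 2, r was 0.99, and the deviations from the genotype means gave 0.80. This pair was the one with an adjusted p under 0.05 among the 21 pairs whose genes both overlapped between genotypes. It no longer passed without *ApoE*-/- replicate 2, 3 or 4. Without *ApoE*-/- replicate 1 or WT replicate 3, *Arntl* and *Npas2* no longer overlapped between genotypes, and the pair could not be read. The permutations shuffled the 8 mice without regard to genotype, and 3 *ApoE*-/- mice lay above every WT mouse for each activator. The permutation p of an activator pair therefore includes the shift between genotypes, and the deviations from the genotype means were not tested.

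For *Arntl* and *Clock*, r was 0.88 (permutation p = 0.00476, adjusted p = 0.0692) and rho 0.90 (permutation p = 0.00456, adjusted p = 0.0685), with r = 0.84 without the same mice and 0.87 for the deviations. For *Clock* and *Npas2*, r was 0.85 (permutation p = 0.00615, adjusted p = 0.0692) and rho 0.93 (permutation p = 0.00223, adjusted p = 0.0502). Without the mice farthest from the median of *Clock*, replicate 2 of each genotype, r was 0.73, and the deviations gave 0.90. WT replicate 2 was the lowest mouse for all 3 activators, and *ApoE*-/- replicates 2 and 4 were the highest.

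**Figure D4:**
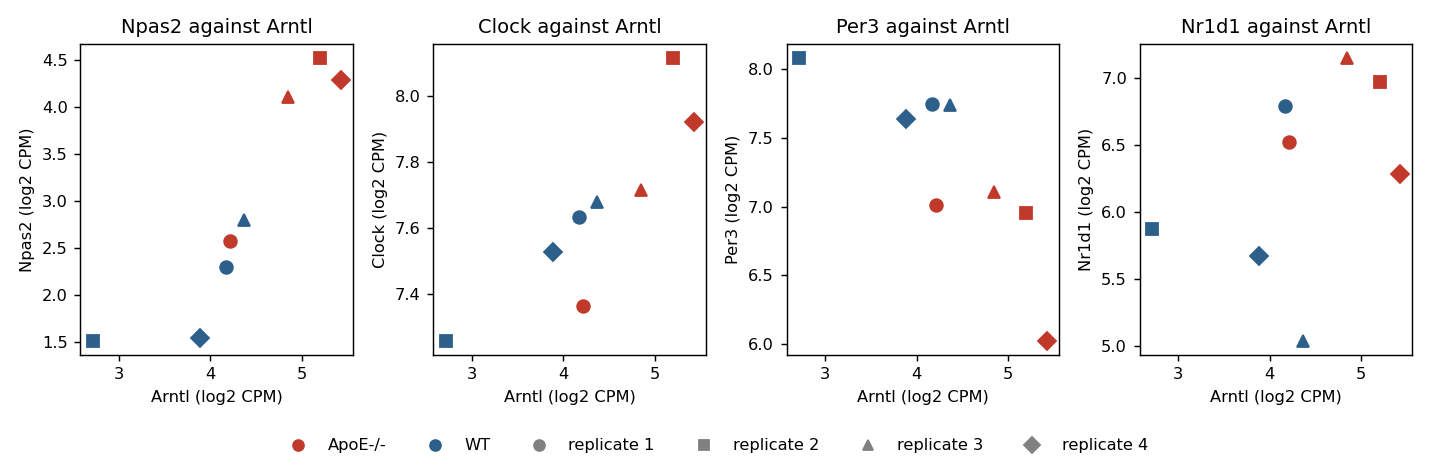
Log2 CPM of Npas2, Clock, Per3 and Nr1d1 against that of Arntl in the 8 aortas, with *ApoE*-/- mice in red, WT mice in blue and a marker shape for each replicate number. Npas2 and Clock rise along Arntl (r = 0.91 and 0.88), while the genotypes stand apart for Per3.

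In the 12 activator-repressor pairs that could be read, no opposite movement passed a test, and 9 pairs were left unjudged. *Cry1*, *Per2* and *Per3* separated the genotypes, so no pooled coefficient of a pair with one of them is given. In the 12 pairs of an activator with *Cry2*, *Per1*, *Nr1d1* or *Nr1d2*, r ranged from −0.54 to 0.54, 8 were negative and 4 positive, and 0 had a permutation p under 0.05. Within genotypes, the deviations of all 21 activator-repressor pairs gave 11 negative and 10 positive coefficients with a median of −0.08, from −0.61 for *Arntl* with *Per3* to 0.40 for *Npas2* with *Per2*. These within-genotype values rest on 8 mice that share their libraries for both genes, and they are given as a description.

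Among the repressors, 16 of the 21 pairs had a positive coefficient of deviations, with a median over the 21 of 0.54. The highest value was 0.88 for *Cry2* with *Per3*. The lowest was −0.82 for *Cry1* with *Nr1d1*. Among WT mice, replicate 1 had the lowest *Cry1* and the highest *Nr1d1* level. *Cry2* and *Per1*, which overlapped between genotypes, had r = 0.74 (permutation p = 0.0327, adjusted p = 0.113) and rho = 0.76 (permutation p = 0.0368, adjusted p = 0.207), with r = 0.52 without *ApoE*-/- replicates 3 and 4.

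For the order of levels between genes, CPM were divided by the annotated exon length of each gene. Over the 8 mice, *Per1* had 36.8 CPM per kilobase, *Nr1d2* 31.0, *Nr1d1* 28.0, *Per2* 25.2, *Per3* 17.6, *Clock* 14.9, *Cry2* 13.1, *Cry1* 4.99, *Arntl* 3.10 and *Npas2* 2.16. Repressors other than *Cry1* thus lay at the top with *Clock*, and *Arntl* and *Npas2* at the bottom. *Cry2* exceeded *Cry1* and *Arntl* exceeded *Npas2* in all 8 mice, and *Per2* exceeded *Per3* in 7. The other neighbours in this order exchanged places in 3 to 5 of the 8 mice, so their ranks over all mice were not set apart. Part of these exchanges followed genotype, and the order by genotype means differed. *Nr1d1* held rank 2 in *ApoE*-/- mice (35.5 CPM per kilobase) and rank 5 in WT mice (20.5), and *Clock* rank 4 (16.3) and rank 7 (13.5). *Per2* went the other way, with rank 5 in *ApoE*-/- mice (15.6) and rank 2 in WT mice (34.8), as did *Per3* with rank 7 (11.9) and rank 4 (23.4). *Cry1* held rank 10 in *ApoE*-/- mice (2.74) and rank 8 in WT mice (7.23), and *Arntl* and *Npas2* each moved by 1 rank. *Per1*, *Nr1d2* and *Cry2* held ranks 1, 3 and 6 in both genotypes.

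**Figure D5:**
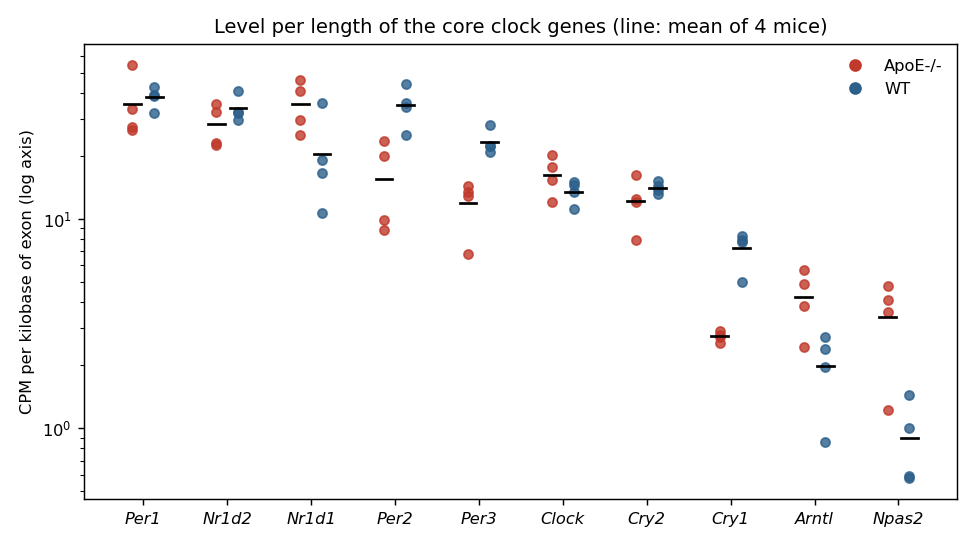
CPM per kilobase of annotated exon for each core clock gene, on a log axis, in *ApoE*-/- (red) and WT (blue) mice, with a line at the mean of 4 mice. Genes are ordered by the mean of all 8 mice, from 36.8 for Per1 to 2.16 for Npas2.

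A list of 18 other clock regulators (kinases, ubiquitin ligases, ROR receptors and further repressors) was read beside the members. All 18 were tested and edgeR called 0 in either direction, with 2 at an unadjusted p under 0.05 and 1 called by DESeq2, shares near the 11.4% and 4.29% of all genes. In 2 of the 18 all *ApoE*-/- mice lay above all WT mice, against 5.41% of all genes. Their median log2 fold change was 0.04, against 0.05 over all genes. *Bhlhe40* (DEC1), a repressor that competes for E-boxes, had 70.4, 65.9, 87.0 and 54.8 CPM in *ApoE*-/- mice and 42.5, 53.5, 29.8 and 41.3 CPM in WT mice. The lowest *ApoE*-/- mouse was just above the highest WT mouse, and the log2 fold change of 0.73 (SE 0.20) passed in DESeq2 (adjusted p = 0.0414) and not in edgeR (adjusted p = 0.163). DESeq2 lost this call in 5 of the 8 fits that left out a mouse, those without *ApoE*-/- replicate 2 or 3 or WT replicate 1, 3 or 4, with adjusted p up to 0.185. *Fbxw11*, a ubiquitin ligase subunit that marks PER proteins for degradation, was the other gene with no overlap (99.3 to 112 against 89.3 to 96.8 CPM). Its log2 difference was 0.20 ± 0.08 (SE), with an edgeR adjusted p of 0.391. *Rorb*, a ROR receptor of low level, was called lower without *ApoE*-/- replicate 1 by edgeR (log2 fold change −1.82, adjusted p = 0.0351, with 1.16% of all genes called lower) and DESeq2 (adjusted p = 0.000238, with 4% of all genes called lower). It had 3.13, 0.656, 0.871 and 0.911 CPM in *ApoE*-/- and 3.99, 2.29, 1.72 and 3.49 CPM in WT mice, with replicate 1 alone among the *ApoE*-/- mice inside the WT range. With all mice, its log2 fold change was −1.04 ± 0.54 (SE), with an adjusted p of 0.554 in edgeR and 0.425 in DESeq2. *Csnk1e*, a kinase that phosphorylates PER proteins, was called lower without the same mouse by DESeq2 (−0.26, adjusted p = 0.0471).

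Of 10 genes known as rhythmic outputs of the clock, 9 had a negative log2 fold change, with a median of −0.45. Over all 15077 genes, 6330 were negative and the median was 0.05. edgeR called 0 of the 10, 4 were lower at an unadjusted p under 0.05 (629 of all genes) and DESeq2 called 3, all lower (236 of all these genes). *Tef*, a D-box activator, had 239, 244, 237 and 186 CPM in *ApoE*-/- and 356, 402, 323 and 337 CPM in WT mice (log2 difference −0.64 ± 0.14 (SE), adjusted p = 0.0818 in edgeR and 0.000217 in DESeq2). Without *ApoE*-/- replicate 1, it passed in edgeR (adjusted p = 0.0462), in a fit that called 1.16% of all genes lower. *Hlf*, of the same family, had 23.3, 29.0, 27.7 and 17.1 CPM against 49.0, 49.8, 41.5 and 40.7 CPM (log2 difference −0.90 ± 0.18 (SE), adjusted p = 0.0668 in edgeR and 0.000631 in DESeq2). *Usp2*, a rhythmic deubiquitinase, had 24.0, 23.3, 30.8 and 23.3 CPM against 33.9, 37.5, 42.0 and 45.2 CPM (log2 difference −0.65 ± 0.14 (SE), adjusted p = 0.0821 in edgeR and 0.00297 in DESeq2). All 3 genes were lower in every *ApoE*-/- mouse than in any WT mouse, as were *Cry1*, *Per2* and *Per3* and 498 of all genes tested. *Dbp*, the third gene of the family of *Tef* and *Hlf* and named here after its values were seen, had 37.3, 37.2, 50.7 and 16.4 CPM in *ApoE*-/- and 54.5, 55.5, 21.2 and 29.1 CPM in WT mice, a log2 difference of −0.18 ± 0.41 (SE) with an edgeR adjusted p of 0.927. DESeq2 without *ApoE*-/- replicate 4 also called *Nampt* (log2 fold change −0.62, adjusted p = 0.0258), an enzyme of NAD synthesis, and *Tsc22d3* (−1.02, adjusted p = 0.00434), known as GILZ, so that 5 of the 10 were lower, against 1.74% of all genes. That mouse had the highest level of both among the 8 mice (370 and 317 CPM).

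Markers of other cells moved with genotype in the same libraries. The 8 macrophage genes summed to 258 to 827 CPM in *ApoE*-/- and 160 to 226 CPM in WT mice, and all 8 were higher in every *ApoE*-/- mouse than in any WT mouse, against 5.41% of all genes. The 8 cardiac muscle genes summed to 139 to 334 CPM in *ApoE*-/- and 346 to 566 CPM in WT mice, and 6 of the 8 were lower without overlap, against 3.3% of all genes. The sums of the endothelium list (1596 to 2495 against 2260 to 2822 CPM) and of 8 glucocorticoid-responsive genes (986 to 2153 against 1306 to 2028 CPM) overlapped, as did those of the contractile smooth muscle, fibroblast, adipocyte, skeletal muscle and T cell lists. Within these lists, 7 of the 8 endothelium genes had a negative log2 fold change, and *Cdh5*, *Kdr* and *Emcn* were lower in every *ApoE*-/- mouse than in any WT mouse (log2 differences −0.37, −0.79 and −0.64, DESeq2 adjusted p = 0.00562, 0.00311 and 0.00503). The fibroblast gene *Lum* (2.34, DESeq2 adjusted p = 5.95e-07), from a list in which all 6 genes were positive, was higher without overlap. The muscle gene *Ckm* (−1.54, DESeq2 adjusted p = 0.00758), from a list in which 2 of 5 tested genes were positive, was lower without overlap. Of the 8 glucocorticoid-responsive genes 3 were positive and 5 negative, with a median log2 fold change of −0.10. Of these, the metallothionein gene *Mt2* (1.45, DESeq2 adjusted p = 0.00411) was higher and the kinase gene *Sgk1* (−0.44, DESeq2 adjusted p = 0.092) lower without overlap. edgeR called 0 of these 7 genes, all of them with an unadjusted p under 0.05, and they were named after their values were seen. No gene of these lists was at 0 in all libraries. The part of cell composition in the clock gene differences was not tested, and in whole aortas fewer cells of a type and less RNA per cell cannot be told apart. The part of the collection hour was not tested either, as the hours are not known.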

How the data were processed

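Whole aortas of 4 *ApoE*-/- and 4 WT mice were profiled by stranded total RNA sequencing after ribosomal depletion. The authors deposited a table per mouse with the raw count of read pairs for each gene, without normalization. The submitters' processing notes name TopHat2 and HTSeq, and GRCm38 and mm10, without versions. Genes held 27.9% to 35.6% of all pairs, and the 5 rows of each table that name no gene (such as pairs without a feature, ambiguous or not unique) held the rest and were left out.

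Groups and replicate numbers came from the labels. The sources do not state whether the genotypes were processed apart. The p-values are computed from the spread between these 8 mice, and a technical difference along genotype would enter them. Genes were filtered with filterByExpr, normalized by TMM and tested with the quasi-likelihood F test of edgeR 4.0.16 (robust, two-sided, R 4.3.3), with genotype as the only factor and Benjamini-Hochberg adjustment over all tested genes at 0.05. The SE is the size of the log2 fold change divided by the square root of F. DESeq2 1.42.0, limma-voom (limma 3.58.1), other scalings, filters, a replicate block and leaving out each mouse were alternatives. DESeq2 without each mouse was added after the counts of edgeR and DESeq2 were seen to differ. Ratios and correlations used log2 CPM with a prior count of 2 (Python 3.11.15).

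In 15077 genes simulated for this comparison, edgeR recovered 22% of the genes given a log2 change of 1 and 68% of those given 2, with 1.10% of its calls false. DESeq2 recovered 47% and 85%, with 22.8% false, and limma-voom 20% and 67%, with 3.33% false. The simulated counts had a small set of changed genes and the same dispersion in both genotypes. In the data the median SD was 0.34 in *ApoE*-/- and 0.18 in WT mice. These shares therefore describe the simulated setting and are not error rates of the calls above.

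The members, lists and comparisons were chosen with earlier results of these data known. Genes named were the 10 members, *Apoe*, genes of the regulator and output lists that passed or did not overlap, and the 5 genes most and least like *Arntl*. Outside this rule, *Dbp*, the 4 genes called only when a mouse was left out (*Rorb*, *Csnk1e*, *Nampt* and *Tsc22d3*) and 7 genes of the cell and glucocorticoid lists were named after their values were seen. Coordinates are from GENCODE M21 (GRCm38), which held 21191 of the 21859 identifiers.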

Additional observations from a re-analysis of the deposited data

Results flagged for a closer look

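Dixon's test at the 95% level was applied to the highest and lowest mouse of each genotype, for the members, the ratios and the named list genes. Of these 42 groups of 4 mice, 5 held a mouse that far from the rest, where chance gives about 2.1 (1 in 20 groups). *Cry1* in WT replicate 1 was 16.7 CPM, against 25.9 to 27.6 CPM in the other WT mice (gap over range 0.846). The log2 ratio of *Cry1* to *Cry2* in the same mouse was −2.51, against −1.80 to −1.65 (0.833). The log2 ratio of *Clock* to *Npas2* in *ApoE*-/- replicate 1 was 4.79, against 3.59 to 3.63 in the other *ApoE*-/- mice (0.971). *Tef* in *ApoE*-/- replicate 4 was 186 CPM, against 237 to 244 (0.873). *Usp2* in *ApoE*-/- replicate 3 was 30.8 CPM, against 23.3 to 24.0 (0.898).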

How the results depend on the processing

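With DESeq2, the core clock genes called rose from 0 to 1 higher and from 1 to 3 lower, and it called 1 of the other regulators higher and 3 of the output genes lower, where edgeR called 0 of each. Over all genes it called 477 higher and 244 lower, against 56 and 14 in edgeR and 21 and 8 in limma-voom. The other scalings and filters kept the calls for the members and lists. When each mouse was left out in turn, edgeR called 0 to 1 core clock genes higher and 0 to 1 lower, 0 to 1 other regulators lower (*Rorb*) and 0 to 1 output genes lower (*Tef*), both 1 only without *ApoE*-/- replicate 1. DESeq2 without each mouse, added after seeing the data, called 1 to 2 core clock genes higher and 1 to 3 lower, 0 to 1 other regulators higher and 0 to 2 lower (2 only without *ApoE*-/- replicate 1), and 3 to 5 output genes lower (5 only without *ApoE*-/- replicate 4). The log2 fold change of *Per1* ranged from −0.38 to 0.014 in edgeR and from −0.39 to 0.0082 in DESeq2, reversing without *ApoE*-/- replicate 1 (0.0082 and 2.22e-05) or 4 (0.014 and 0.0082). The *Per2* to *Per3* difference ranged from −0.36 to 0.0203, reversing without *ApoE*-/- replicate 1. Among pairs whose genes both overlapped between the genotypes of the mice kept, those with an adjusted p under 0.05 numbered 0 to 1 without each mouse. The pooled median r of the 21 activator-repressor pairs includes 9 pairs with *Cry1*, *Per2* or *Per3*, which carry the genotype difference, and nothing is read from it. It was −0.45 over the 8 mice, −0.54 to −0.20 without each mouse (−0.197 without *ApoE*-/- replicate 4, −0.324 without WT replicate 2) and −0.079 for deviations from the genotype means. The causes were not tested.

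Mice with the same replicate number were not shown to be paired, as their deviations correlated at 0.0593, −0.448, 0.316 and 0.162. With the number as a replicate block, 1 gene was called higher and 1 lower, 0 core clock genes were called lower (*Cry1* log2 fold change −1.37, adjusted p = 0.112), and the median r was −0.0615. The 4 ratios that passed with all mice passed in 0 of the 8 sets of 7 mice (adjusted p at least 0.0571, added after seeing the data). The block allows no exact p under 0.125 for a ratio.

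In the simulated counts, with 4 mice in each genotype, a log2 difference of 1 was often missed by edgeR. *Npas2*, *Cry1* and *Arntl* rest on the fewest counts, with 59 to 524, 195 to 577 and 138 to 990 per library.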

Other observations

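The genes most like *Arntl* were sought among 14198 tested genes with a mean of at least 1 CPM, by Pearson's r of log2 CPM over the 8 mice. The highest values were 0.95 for *Qrich1*, *St3gal3*, *Kmt5a* and *Rab1a* and 0.94 for *Il1a*. The lowest were −0.98 for *Arhgap42*, −0.95 for *Cyp39a1*, −0.94 for *Nxpe2*, −0.93 for *Tti2* and −0.92 for *Rhebl1*. The r of all these genes with *Arntl* had a median of 0.04 and a range from −0.64 to 0.67 between percentiles 5 and 95, and 26 of them exceeded 0.9 in size. All values come from the same 8 libraries, and the genes were chosen by this measure, so no test is given. Of the 10 genes, *Kmt5a* was higher and *Tti2* lower in every *ApoE*-/- mouse than in any WT mouse, and the lowest edgeR adjusted p of the 10 genes was 0.213.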
